A study of Mus musculus with 11 samples.

Results

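The genes described here are those carried by mitochondrial DNA, taken as every row of the deposited count table whose symbol begins with mt-. The rule found 37 of the 55291 genes in the table, namely 13 that encode proteins, 2 ribosomal RNAs and 22 transfer RNAs. RNA was sequenced from E14 mouse embryonic stem cells, kept without feeder cells in serum medium with LIF and inhibitors of GSK and MEK. The tagged cells carry V5 and an auxin-inducible degron on SPT16, which with SSRP1 forms the histone chaperone FACT. A degron of this kind lets the auxin 3-indole acetic acid (IAA) and the plant receptor TIR1 send the protein to the proteasome. The tagged IAA group held 3 libraries of cells given 500 nM IAA for 24 hours (2 of the targeted line coded 11D and 1 of the targeted line coded 10E), and the tagged EtOH group held 4 libraries of cells given the ethanol solvent for the same time (2 of each line). The untagged IAA group held 3 libraries of cells without the tag, given IAA as well. The labels speak of clones, and nothing ties either line code to a clone number. Where no label says that libraries came from separate cultures, p-values measure only the spread between these libraries.

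Mitochondrial DNA is a small circle that lies outside the nucleus and is packaged by the protein TFAM rather than by nucleosomes. The polymerase POLRMT reads both of its strands into long precursors that carry many genes each. Transfer RNAs sit between most of the coding sequences, and their excision by RNase P and ELAC2 releases the mRNAs and rRNAs, after which stability factors such as the LRPPRC complex set how long each mRNA lasts. The proteins made from these mRNAs are core subunits of respiratory complexes I, III and IV and of the ATP synthase (complex V), and all other subunits and all factors of mitochondrial gene expression come from the nucleus. In the GRCm38 annotation, 28 of the 37 genes lie on the plus strand of the chrM sequence and 9 on the minus strand, which are mt-Nd6 and 8 transfer RNAs.

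Library totals ran from 3100127 to 13510163 counts. The 10 embryonic stem cell markers of the list used were all above 1 CPM (counts scaled to a common library size) in every library, with a summed level of 2355 to 2671 CPM in tagged IAA, 5104 to 6922 CPM in tagged EtOH and 5783 to 6070 CPM in untagged IAA libraries. The 10 fibroblast markers summed to 16.5 to 21.2 CPM in tagged IAA, 22.4 to 35.1 CPM in tagged EtOH and 22.9 to 28.9 CPM in untagged IAA libraries, and 1, 2 and 5 of them had no count in any library of those groups. Supt16, the gene of the tagged protein, had 252.9 to 285.9 CPM in tagged IAA, 363.1 to 414.8 CPM in tagged EtOH and 536.7 to 575.5 CPM in untagged IAA libraries. The degron acts on the protein, so this RNA level does not check its loss. Of the tested markers, 9 of 10 embryonic stem cell genes were called lower in tagged IAA than in tagged EtOH. So were 1 of 5 fibroblast genes, while 4 of 8 genes of differentiated lineages were called higher. Over all genes tested, 28.1% were called lower and 29.3% higher. The part of the marker shifts in the mitochondrial values was not tested. CPM values here are scaled by TMM (trimmed mean of M values), which sets the bulk of the genes equal between libraries.

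Mitochondrially encoded RNA took up a larger share of the counts in tagged cells given IAA. It made up 3.16% and 2.82% of all counts in the 11D IAA libraries and 2.45% in the 10E IAA library. It made up 2.02% and 2.26% in the 11D EtOH libraries, and 1.67% and 2.01% in the 10E EtOH libraries. Every tagged IAA library thus lay above every tagged EtOH library, and the ratio of the group means was 1.41 (2.81% ± 0.356 in tagged IAA, n = 3, against 1.99% ± 0.246 in tagged EtOH, n = 4, SD). Within line 11D the ratio was 1.40, and within line 10E it was 1.33. The exact 95% binomial interval of the share ran from 3.14% to 3.18% in the smallest library, 11D IAA replicate 1, and such intervals cover counting error only. The untagged IAA libraries held 2.73%, 2.53% and 2.28%, so that they overlapped the tagged IAA group and lay above all tagged EtOH libraries. The ratio of means was 1.12 for tagged IAA over untagged IAA and 0.792 for tagged EtOH over untagged IAA.

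The size of that difference rested on what the counts were divided by. When the total was replaced by the TMM effective library size, the shares were 2.79% and 2.46% in 11D IAA and 2.05% in 10E IAA, against 2.23% and 2.40% in 11D EtOH and 1.69% and 2.27% in 10E EtOH. The tagged groups then overlapped, and the ratio of their means was 1.13, while tagged IAA over untagged IAA became 0.921 and tagged EtOH over untagged IAA 0.814. The TMM factors themselves ran from 1.13 to 1.20 in tagged IAA libraries and from 0.886 to 0.983 in tagged EtOH libraries. Across all 17904 genes tested, the median log2 fold change of tagged IAA over tagged EtOH was 0.03 with TMM and 0.36 with plain library totals, and the genes called were 5245 higher and 5034 lower with TMM and 7704 higher and 2859 lower with totals. In bulk RNA, fewer cells of a type and less RNA per cell cannot be told apart, and the counts give RNA relative to other RNA, not per cell.

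**Figure D1:**
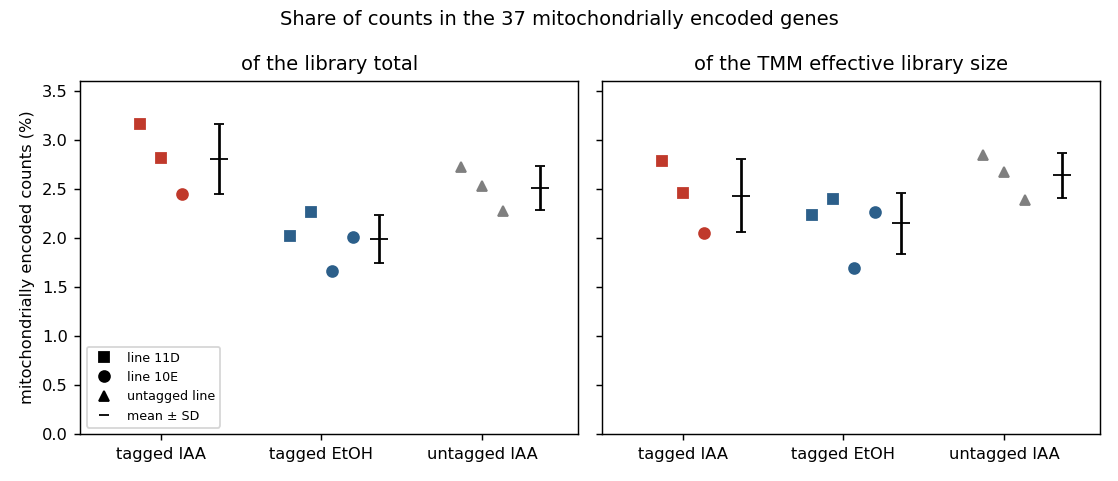
Percentage of counts in the 37 mitochondrially encoded genes, of the library total (left) and of the TMM effective library size (right); each point is a library, its shape the line, and the bar beside each group its mean ± SD. On the left the 3 tagged IAA libraries (2.45% to 3.16%) lie above the 4 tagged EtOH libraries (1.67% to 2.26%), and on the right those groups overlap.

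Gene by gene, 20 of the 37 passed the filter on low counts (11 mRNAs, 2 rRNAs and 7 tRNAs) and were tested with edgeR's quasi-likelihood test, adjusted by Benjamini-Hochberg over all 17904 genes. For tagged IAA against tagged EtOH, 4 of the 20 were called higher at FDR (false discovery rate) under 0.05 and 0 lower, where 29.3% of all genes tested were called higher and 28.1% lower. The 4 were the large rRNA mt-Rnr2 and the tRNA genes mt-Tw, mt-Te and mt-Tp. mt-Te, at 16 counts in tagged IAA and 5 in tagged EtOH libraries, passed the filter only through the group where it is high, so its call is a description. None of the 11 tested mRNAs was called by edgeR, and none had an unadjusted p under 0.05. DESeq2 also called 4 of the 20 higher and 0 lower, with the mRNA mt-Cytb among them and mt-Rnr2 not. Over all 17904 genes DESeq2 called 4762 higher and 4284 lower. Leaving out 10E IAA replicate 1 gave 1 call by edgeR, and leaving out 11D EtOH replicate 1 or replicate 2 gave 2. Over all genes, those fits called 3888 of 16548, 4907 of 18314 and 4500 of 16478 higher. The log2 fold changes of the 11 mRNAs ran from -0.20 to 0.26 with a median of 0.10, and 9 of the 11 were positive. With plain library totals, 11 of the 20 were called higher and 0 lower, against 43.0% of all genes called higher with that scaling. Those 11 were the mRNAs mt-Nd1, mt-Nd2, mt-Co1, mt-Nd4, mt-Nd5 and mt-Cytb, both rRNAs, mt-Tw, mt-Te and mt-Tp. The median over the 20 was then 0.48, beside 0.36 over all genes. With TMM it was 0.15, beside 0.03.

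**Figure D2:**
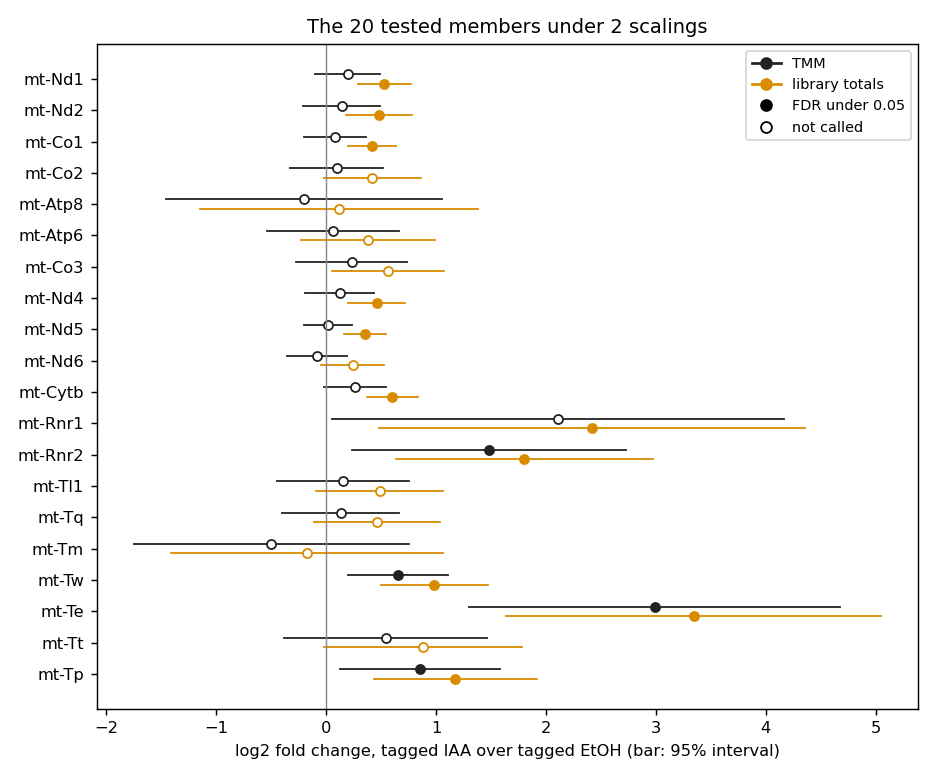
Log2 fold change of tagged IAA over tagged EtOH for the 20 tested members, mRNAs at the top, then rRNAs and tRNAs, with TMM scaling (black) and with plain library totals (orange); bars are 95% intervals and filled points have an FDR under 0.05. With TMM the 11 mRNAs lie between -0.20 and 0.26 and none is filled, while with library totals 6 of them are.

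Nearly all mitochondrial counts came from 7 mRNAs. mt-Co1, mt-Nd1, mt-Cytb, mt-Nd5, mt-Nd2, mt-Nd4 and mt-Nd6 each had over 1000 counts in every library and held 98.3% to 99.7% of a library's mitochondrial counts. Per kilobase of gene, mt-Co1 stood highest, at 8026 ± 1263 CPM per kb in tagged IAA, 7250 ± 1103 CPM per kb in tagged EtOH and 9083 ± 704.5 CPM per kb in untagged IAA libraries (SD), beyond the spread of any other gene. mt-Nd1 came next, at 3610 ± 413 CPM per kb in tagged IAA, 3093 ± 557 in tagged EtOH and 3839 ± 591 in untagged IAA. mt-Cytb followed at 2617 ± 612, 2026 ± 561 and 2231 ± 72.3 CPM per kb in those groups, and its SD range touched that of mt-Nd1 in both tagged groups. mt-Nd2 (1422 ± 357, 1217 ± 337 and 1460 ± 161 CPM per kb), mt-Nd5 (1235 ± 59.6, 1228 ± 83.9 and 1547 ± 162) and mt-Nd6 (930 ± 114, 1019 ± 251 and 1072 ± 84.5) came after, with overlapping SD ranges in tagged EtOH, while in tagged IAA mt-Nd6 stood below both others. mt-Nd4 was the lowest of the 7, at 737 ± 154 CPM per kb in tagged IAA, 639 ± 148 in tagged EtOH and 804 ± 56.55 in untagged IAA.

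Complex I is the entry point of electrons from NADH, and 7 of its core subunits are encoded here, 5 of them well counted. mt-Nd1, which encodes a membrane-arm subunit beside the quinone site, had 3911 and 3256 CPM in 11D IAA and 3199 CPM in 10E IAA, against 3092 and 3038 CPM in 11D EtOH and 2219.5 and 3490.2 CPM in 10E EtOH. The groups overlapped, and the log2 fold change was 0.20 ± 0.14 (SE, 95% interval -0.10 to 0.49). mt-Nd2 had 1886 and 1376.5 CPM in 11D IAA and 1165 CPM in 10E IAA, against 1431 and 1476 CPM in 11D EtOH and 740.3 and 1407 CPM in 10E EtOH, a log2 fold change of 0.14 ± 0.17. mt-Nd4, a proton-pumping subunit, had 1203 and 1055 CPM in 11D IAA and 786.0 CPM in 10E IAA, against 963.6 and 972.2 CPM in 11D EtOH and 576.4 and 1011 CPM in 10E EtOH. Its log2 fold change was 0.12 ± 0.15. In these 3 genes the lowest library was 10E EtOH replicate 1, and without the other library of that cell, 10E EtOH replicate 2, all 3 were called higher, with log2 fold changes of 0.34 (mt-Nd1, FDR 0.0201), 0.34 (mt-Nd2, FDR 0.0384) and 0.31 (mt-Nd4, FDR 0.016).

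mt-Nd5, the largest mitochondrial mRNA and another proton-pumping subunit, differed least between the treatments. It had 2375 and 2168 CPM in 11D IAA and 2215.5 CPM in 10E IAA, against 2099.8 and 2123 CPM in 11D EtOH and 2319 and 2415 CPM in 10E EtOH. Its log2 fold change was 0.02 ± 0.10, with a 95% interval of -0.20 to 0.24. mt-Nd6 is the only mRNA of the minus strand, and so comes from the other precursor. It had 429 and 474 CPM in 11D IAA and 546 CPM in 10E IAA, against 417 and 514 CPM in 11D EtOH and 715 and 469 CPM in 10E EtOH. Its log2 fold change of -0.08 ± 0.13 was the only negative one among the 7 well-counted mRNAs, and with library totals it was 0.24. mt-Nd5 and mt-Nd6 overlap by 14 bases on opposite strands, and both strands are read into long precursors. The sources used here do not give the counter's strand setting. Whether counts include RNA of the opposite strand therefore cannot be told, in that overlap or over the whole of mt-Nd6.

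mt-Cytb, which encodes cytochrome b, the mitochondrial core of complex III, had the highest fold change among the mRNAs. It had 3539 and 3238 CPM in 11D IAA and 2205 CPM in 10E IAA, against 2711 and 2869 CPM in 11D EtOH and 1438 and 2254 CPM in 10E EtOH. Within line 11D both IAA libraries lay above both EtOH libraries, while in line 10E the IAA library lay between the EtOH libraries. The log2 fold change was 0.26 ± 0.13 (95% interval -0.02 to 0.55) with an edgeR FDR of 0.0998, and DESeq2 gave 0.30 with an adjusted p of 0.0312. Leaving out 1 library at a time, the edgeR value ran from 0.15 without 10E EtOH replicate 1 to 0.41 without 10E EtOH replicate 2, where its FDR was 0.00606. In the authors' deposited table, 25 of the 37 genes had an adjusted p and mt-Cytb was the 1 under 0.05, with a log2 fold change of 0.35 ± 0.13 and an adjusted p of 0.0172. The other 36 genes of the set were not called in the authors' deposited table, and 21 of its 25 values were positive. The share of all genes called in that table was not taken here.

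mt-Co1, the catalytic subunit of cytochrome c oxidase (complex IV), is the most abundant member and alone took 50.1% to 53.8% of the mitochondrial counts of a library. It had 14039 and 12921 CPM in 11D IAA and 10242 CPM in 10E IAA, against 11498 and 12923 CPM in 11D EtOH and 8845 and 11539 CPM in 10E EtOH. The groups overlapped and the log2 fold change was 0.08 ± 0.13, with a 95% interval of -0.20 to 0.36. With library totals the value was 0.42 ± 0.10 with an edgeR FDR of 0.00224.

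**Figure D3:**
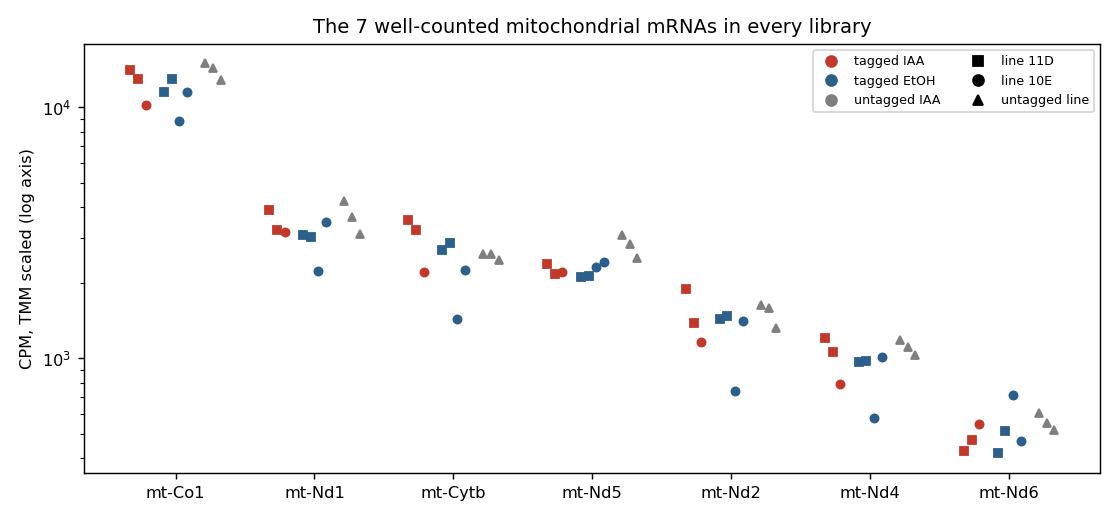
TMM-scaled CPM (log axis) of the 7 well-counted mitochondrial mRNAs in each of the 10 libraries, coloured by group and shaped by line. For every gene the tagged IAA and tagged EtOH libraries overlap; in mt-Nd5 the 7 tagged libraries lie below the 3 untagged ones, and 10E EtOH replicate 1 is the lowest library for mt-Nd2 (740.3 CPM) and mt-Nd4 (576.4 CPM).

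The other 6 mRNAs, mt-Co2, mt-Co3, mt-Atp6, mt-Atp8, mt-Nd3 and mt-Nd4l, had only 0 to 165 counts in any library. They are the block between the tRNAs mt-Td and mt-Th, apart from mt-Nd4 at its end, and encode the other core subunits of complex IV, both mitochondrial subunits of the ATP synthase and a pair of small complex I subunits. Summed over the 10 libraries, mt-Co2 had 648 counts, mt-Co3 477, mt-Atp6 361, mt-Atp8 96, mt-Nd4l 55 and mt-Nd3 42, beside 950415 counts for mt-Co1. The sequence of 5 of the 6 is also present in the nuclear genome. Of all 50-base windows of each gene, 100% (mt-Co2), 99.9% (mt-Co3), 99.5% (mt-Atp6), 98.8% (mt-Nd4l) and 98% (mt-Nd3) occurred unchanged in an annotated nuclear transcript, against 0% for mt-Nd1, mt-Nd6, mt-Cytb, mt-Rnr1 and mt-Atp8, 7.61% for mt-Nd5 and 8.19% for mt-Nd2. mt-Nd4 (62.2%) and mt-Co1 (51.1%) stood between. The sources used here give neither the read length nor the handling of reads with several matches, and the part of shared sequence in the low counts was not tested.

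The copies that share most windows lie side by side as 7 annotated pseudogenes on the minus strand of chr1:24611535-24616197 (GRCm38), a stretch of 4663 bases that runs from a part of mt-Co1 (Gm29216) through mt-Co2 (Gm28661), mt-Atp6 (Gm10925), mt-Co3 (Gm28437), mt-Nd3 (Gm28438) and mt-Nd4l (Gm10222) to a part of mt-Nd4 (Gm28439). Gm28661, Gm10925, Gm28437, Gm10222 and Gm28439 matched the aligned bases of their mitochondrial gene at 100%, Gm29216 at 99.79% and Gm28438 at 99.71%. The 7 copies together took only 43 to 408 counts in a library. A stretch of 90 bases of mt-Co2, the gene with all of its windows shared, is shown beside the identical copy Gm28661 and the diverged copy Gm13341 on chromosome 2. The stretches are chrM:7214-7303 on the plus strand, chr1:24615275-24615364 on the minus strand and chr2:22587672-22587761 on the minus strand, from the GENCODE transcripts of GRCm38, and capitals mark bases that differ from mt-Co2.
mt-Co2: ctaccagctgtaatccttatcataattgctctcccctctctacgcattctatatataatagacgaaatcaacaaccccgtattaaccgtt
Gm28661: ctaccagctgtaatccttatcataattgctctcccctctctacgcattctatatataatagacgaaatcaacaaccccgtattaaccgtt
Gm13341: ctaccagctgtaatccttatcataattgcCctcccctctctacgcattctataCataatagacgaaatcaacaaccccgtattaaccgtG
Here Gm28661 has 0 differences and Gm13341 has 3. Over its whole aligned length Gm13341 is 97.62% identical to mt-Co2.

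mt-Atp8, a small subunit of the ATP synthase stalk, is the exception among the 6, since none of its windows was found in an annotated nuclear transcript. Its 1 to 17 counts per library came from a gene of 204 bases whose last 43 bases are also the start of mt-Atp6. The end of mt-Atp8 at chrM:7890-7969 (plus strand, GRCm38) shows the overlap, with the bases shared by both genes in capitals.
mt-Atp8 end: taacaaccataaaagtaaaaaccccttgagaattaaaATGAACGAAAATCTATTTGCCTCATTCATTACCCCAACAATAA
In the nuclear block on chromosome 1, the gap between Gm28661 and Gm10925 measures 233 bases, beside 230 bases between mt-Co2 and mt-Atp6 on chrM, where the rest of mt-Atp8 lies. That gap carries no annotated transcript and its sequence was not read here.

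**Figure D4:**
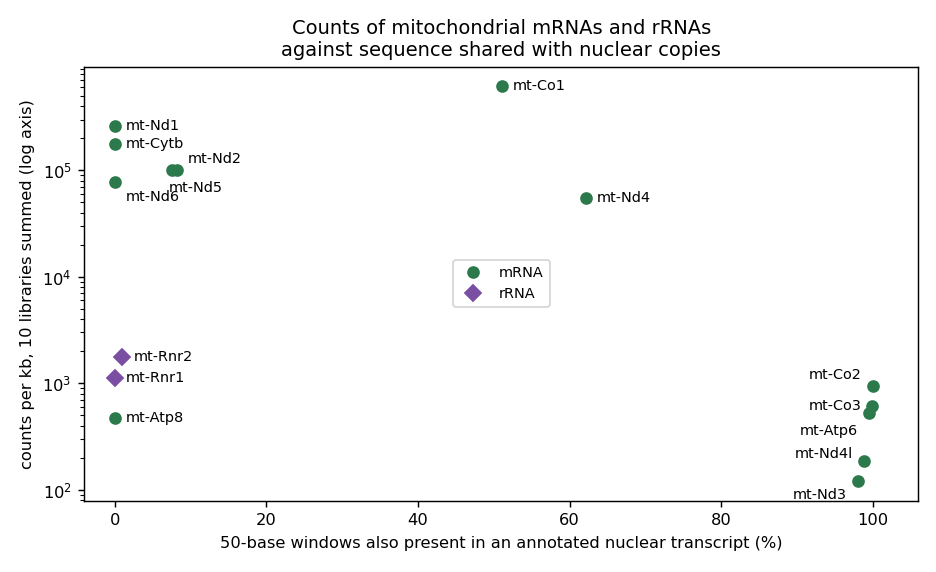
Counts per kb summed over the 10 libraries (log axis) against the percentage of 50-base windows also present in an annotated nuclear transcript, for the 13 mRNAs and 2 rRNAs. The 5 mRNAs at 98% to 100% and mt-Atp8 lie below the rRNAs, while mt-Co1 and mt-Nd4, at 51.1% and 62.2%, lie with the well-counted mRNAs.

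When the levels of the well-counted mRNAs were divided by the windows that no nuclear transcript shares in place of the gene length, their order altered. mt-Nd4 then stood at 2022 ± 421 CPM per kb in tagged IAA, 1755 ± 406 in tagged EtOH and 2208 ± 155 in untagged IAA, above mt-Nd2 (1625 ± 408, 1392 ± 386 and 1669 ± 184), mt-Nd5 (1374 ± 66.3, 1365 ± 93.3 and 1720 ± 180) and mt-Nd6 (1027 ± 126, 1125 ± 277 and 1184 ± 93.4). The SD range of mt-Nd4 overlapped that of mt-Nd2 in both tagged groups, and those of mt-Nd5 and mt-Nd6 in tagged EtOH. mt-Co1 kept the highest level under both divisors. Dividing by unshared windows assumes that no count fell in a shared window, which was not tested. Of the 6 low mRNAs, 4 passed the filter for tagged IAA against tagged EtOH and none was called: the log2 fold change was 0.10 ± 0.20 for mt-Co2, 0.23 ± 0.24 for mt-Co3, 0.06 ± 0.28 for mt-Atp6 and -0.20 ± 0.59 for mt-Atp8. mt-Nd3, at 0 to 8 counts, and mt-Nd4l, at 0 to 11 counts, did not pass. The 95% interval was -0.33 to 0.52 for mt-Co2 and -0.27 to 0.73 for mt-Co3, and wider for mt-Atp6 and mt-Atp8.

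The ribosomal RNAs of the mitochondrial ribosome, mt-Rnr1 (12S, chrM:70-1024) and mt-Rnr2 (16S, chrM:1094-2675), were scarce, and 1 library decided their change. In 11D IAA replicate 1 they had 557 and 858 counts and made up 1.44% of the mitochondrial counts. In the other 9 libraries mt-Rnr1 had 22 to 113 counts and mt-Rnr2 125 to 301, together 0.0843% to 0.255% of the mitochondrial counts. For mt-Rnr2 that was 244.1 CPM in 11D IAA replicate 1, 18.4 CPM in 11D IAA replicate 2 and 33.1 CPM in 10E IAA, against 38.8 and 23.2 CPM in 11D EtOH and 28.5 and 19.6 CPM in 10E EtOH. The log2 fold change of mt-Rnr2 was 1.48 ± 0.59 (edgeR FDR 0.0412), and without 11D IAA replicate 1 it was -0.12 ± 0.25 (FDR 0.695). The mt-Rnr2 call held in 2 of 7 cases when 1 library was left out, those without 10E EtOH replicate 1 (FDR 0.0397) and without 11D IAA replicate 2 (FDR 0.00128). mt-Rnr1, at 158.4 CPM in that library, 2.32 CPM in 11D IAA replicate 2 and 8.76 CPM in 10E IAA against 8.70 and 7.42 CPM in 11D EtOH and 14.8 and 4.63 CPM in 10E EtOH, was not called (2.11 ± 0.97, FDR 0.0738), and without that library its value was -0.91 ± 0.42 (FDR 0.0785). That library had the smallest total, 3100127 counts. The sources used here do not say whether rRNA was removed or poly(A) RNA selected.

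The tRNA genes held 69 to 603 counts in a library, 0.0961% to 0.224% of the mitochondrial counts. Of the 22, 16 had a count in some library, 7 passed the filter, and mt-Tf, mt-Td, mt-Tk, mt-Tg, mt-Tr and mt-Ts2 had none in any library. Among the genes without a count, mt-Td, mt-Tk, mt-Tg and mt-Tr lie between genes copied in the nuclear block on chromosome 1. mt-Tf and mt-Ts2 do not. The stretches of that block between its annotated copies were not read, and their part in the missing counts was not tested. The 3 called higher after IAA and mt-Tq, called in another comparison below, are printed from the GENCODE transcripts of GRCm38 with the anticodon in capitals. They are the genes of the tRNAs for tryptophan (mt-Tw, chrM:4950-5016, plus strand), glutamate (mt-Te, chrM:14071-14139, minus strand), proline (mt-Tp, chrM:15356-15422, minus strand) and glutamine (mt-Tq, chrM:3772-3842, minus strand), each 67 to 71 bases long.
mt-Tw: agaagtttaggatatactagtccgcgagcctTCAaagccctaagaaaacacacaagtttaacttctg
mt-Te: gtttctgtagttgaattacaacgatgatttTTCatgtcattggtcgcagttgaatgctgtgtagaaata
mt-Tp: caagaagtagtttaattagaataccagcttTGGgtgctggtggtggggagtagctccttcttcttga
mt-Tq: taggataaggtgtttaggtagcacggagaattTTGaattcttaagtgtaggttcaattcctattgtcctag
Counts of such short genes may include fragments of unprocessed precursors, which was not tested. With the strand setting not given, counts of the minus-strand mt-Te, mt-Tp and mt-Tq may also include RNA of the opposite strand.

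mt-Tw was the only called gene whose groups did not overlap. It had 9.39 and 9.68 CPM in 11D IAA and 11.8 CPM in 10E IAA, against 4.66 and 7.33 CPM in 11D EtOH and 8.10 and 5.72 CPM in 10E EtOH. Its log2 fold change was 0.66 ± 0.21 (edgeR FDR 0.0158). Without 10E IAA replicate 1 the value was 0.59 ± 0.28 and the FDR 0.111. mt-Tp had 5.40 and 10.5 CPM in 11D IAA and 9.63 CPM in 10E IAA, against 2.17 and 4.20 CPM in 11D EtOH and 11.2 and 4.44 CPM in 10E EtOH. Its groups overlapped, and the highest of the 7 values was that of 10E EtOH replicate 1, while the log2 fold change was 0.85 ± 0.34 (edgeR FDR 0.0442). Leaving out 1 library at a time, the call for mt-Tp held in 3 of 7 cases. It was lost without 10E EtOH replicate 2 (FDR 0.0742), 11D EtOH replicate 1 (FDR 0.123), 11D EtOH replicate 2 (FDR 0.0813) and 11D IAA replicate 2 (0.45, FDR 0.355). mt-Te rested on very few reads, 16 counts in tagged IAA and 5 in tagged EtOH libraries, and 9 of the 16 came from 10E IAA replicate 1. The ratio of its pooled counts per total count was 5.42 (exact 95% counting interval 1.90 to 18.9), the fitted log2 fold change 2.99 ± 0.80 (edgeR FDR 0.00449), and without 10E IAA replicate 1 it did not pass the filter. The remaining tested tRNAs were not called, with log2 fold changes of 0.15 ± 0.28 for mt-Tl1, 0.13 ± 0.25 for mt-Tq, -0.50 ± 0.59 for mt-Tm and 0.54 ± 0.44 for mt-Tt.

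Among the tRNAs below the filter, mt-Tc, for cysteine, had 13 counts in tagged IAA and 2 in tagged EtOH libraries, a ratio of counts per total of 11.02 (exact 95% counting interval 2.49 to 101). mt-Ta, for alanine, had 20 and 10 counts, a ratio of 3.39 (1.51 to 8.11). Of the 20 counts of mt-Ta, 16 came from 11D IAA replicate 2. In untagged IAA libraries mt-Tc had 7 counts and mt-Ta 14. There mt-Ta averaged 0.718 CPM, beside 0.658 CPM in tagged IAA, and mt-Tc 0.313 CPM, beside 0.581 CPM. Other tRNAs below the filter had fewer counts in tagged IAA than in tagged EtOH, such as mt-Ty (2 against 7) and mt-Ts1 (1 against 3). The genes mt-Tc and mt-Ta were singled out after their values were seen.

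The ratio of mt-Cytb to mt-Nd5 stood apart between the targeted lines. Relative to mt-Nd5, which lies next to it but for mt-Nd6 and mt-Te, mt-Cytb counted 1.49 and 1.49 in 11D IAA and 0.995 in 10E IAA, and 1.29 and 1.35 in 11D EtOH against 0.620 and 0.933 in 10E EtOH. All 4 libraries of line 11D thus lay above all 3 of line 10E, and above the untagged libraries at 0.841, 0.908 and 0.979. As a percentage of the mitochondrial counts, mt-Cytb made up 12.7% and 13.2% in 11D IAA, 10.8% in 10E IAA, 12.2% and 12.0% in 11D EtOH, 8.49% and 9.95% in 10E EtOH, and 9.16%, 9.68% and 10.3% in untagged IAA. mt-Nd5 showed the opposite order, with 8.53% and 8.82% in 11D IAA, 10.8% in 10E IAA, 9.42% and 8.84% in 11D EtOH, 13.7% and 10.7% in 10E EtOH, and 10.5% to 10.9% in untagged IAA. These shares do not depend on any scaling between libraries. For mt-Co1, mt-Nd1, mt-Nd2 and mt-Nd4 the shares of both lines overlapped, as for mt-Co1 at 50.4% to 53.8% in 11D and 50.1% to 52.2% in 10E.

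**Figure D5:**
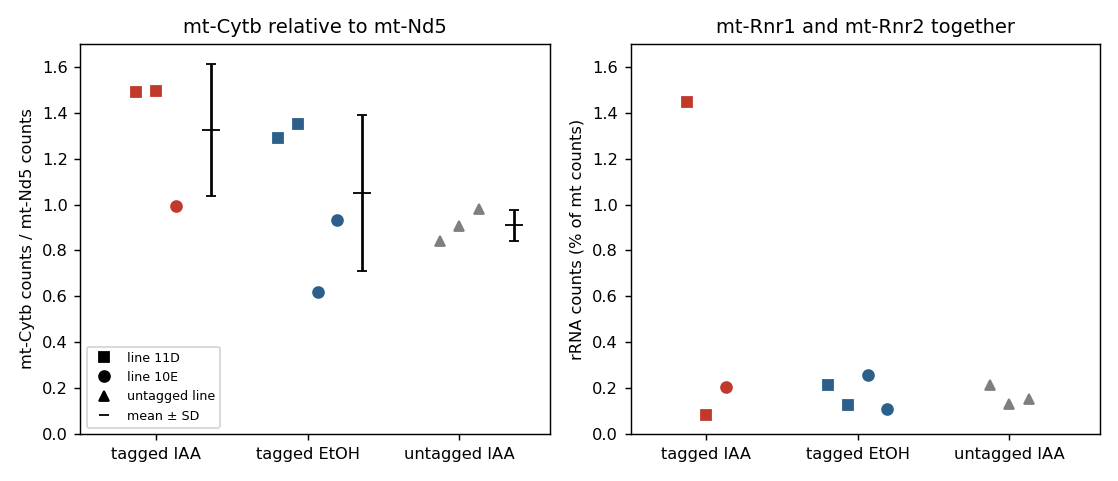
Left, ratio of mt-Cytb to mt-Nd5 counts in each library with the mean ± SD of each group; the 4 libraries of line 11D (1.29 to 1.49) lie above the 3 of line 10E (0.620 to 0.995) and the 3 untagged ones. Right, the counts of both rRNAs as a percentage of mitochondrial counts, 1.44% in 11D IAA replicate 1 and at most 0.255% elsewhere.

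Line 11D against line 10E under EtOH gave 0 of 20 members called in either direction by edgeR, where 3.23% of all genes were called. DESeq2 called 0 of the 20, and 231 of all 17904 genes higher and 175 lower. By edgeR, 5 of the 20 had an unadjusted p under 0.05, beside 3250 of all 17904 genes. The mRNA with the lowest FDR was mt-Cytb, at 0.59 ± 0.18 (edgeR FDR 0.0982). Leaving out 1 library at a time, it ran from 0.30 without 10E EtOH replicate 1 to 0.92 without 10E EtOH replicate 2. mt-Tq was at -1.02 ± 0.32 (edgeR FDR 0.105), with 2.84 and 2.90 CPM in 11D IAA and 7.44 CPM in 10E IAA, and 3.11 and 2.86 CPM in 11D EtOH against 6.53 and 5.42 CPM in 10E EtOH. Its 4 libraries of line 11D lay below its 3 of line 10E. The difference between the lines in their response to IAA was not called for any member by edgeR or DESeq2, and edgeR called 0% of all genes. By edgeR, 0 of the 20 members had an unadjusted p under 0.05, beside 872 of all 17904 genes. Line 10E has a single IAA library, so that its spread was taken from the other groups. By line, the 7 well-counted mRNAs had log2 fold changes of -0.05 (mt-Nd6) to 0.28 (mt-Cytb) in 11D and -0.13 (mt-Nd6) to 0.24 (mt-Cytb) in 10E.

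Against untagged cells under the same IAA, tagged IAA cells had 2 of 20 members called lower and 0 higher by edgeR, where 27.8% of all genes were called lower and 27.9% higher. mt-Nd5 was 0.33 lower on the log2 scale (-0.33 ± 0.11, edgeR FDR 0.0189), at 2375 and 2168 CPM in 11D IAA and 2215.5 CPM in 10E IAA, against 3099, 2855 and 2511 CPM in untagged IAA. These groups did not overlap. With library totals the value was -0.04 and was not called. The FDR was 0.0614 without 10E IAA replicate 1, 0.0881 without 11D IAA replicate 2 and 0.0683 without untagged IAA replicate 2. mt-Tq was called lower too (-0.94 ± 0.32, edgeR FDR 0.0224), at 2.84 and 2.90 CPM in 11D IAA and 7.44 CPM in 10E IAA, against 15.01, 6.90 and 6.14 CPM in untagged IAA. Its groups overlapped through the 10E library, and without the highest untagged library, replicate 1, the value was -0.49 with an FDR of 0.111, and without 11D IAA replicate 2 the FDR was 0.072. As counts of calls, leaving out 10E EtOH replicate 2 gave 4 lower, 10E IAA replicate 1 gave 3 higher and 1 lower, 11D IAA replicate 2 gave 2 higher and 0 lower, untagged IAA replicate 1 gave 1 higher and 1 lower, and untagged IAA replicate 2 gave 1 lower. DESeq2 called 0 higher and 2 lower, where it called 4129 of all 17439 genes higher and 3983 lower. mt-Cytb, at 0.10 ± 0.14, was the 1 positive value among the 11 mRNAs, whose median was -0.23.

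Tagged EtOH against untagged IAA differs in both tag and agent, which cannot be told apart. Here edgeR called 0 of 20 members, where 3.57% of all genes were called, while 19 of the 20 values were negative and 6 had an unadjusted p under 0.05, beside 3886 of all 17439 genes. DESeq2 called 2 lower, mt-Nd5 (-0.34, adjusted p 0.00691) and mt-Co1 (-0.34, adjusted p 0.0196). Over all 17439 genes it called 350 higher and 543 lower. Without 10E EtOH replicate 2, edgeR called 6 lower, and without untagged IAA replicate 3 it called 1. The median over the 20 was -0.33, beside -0.005 over all genes. mt-Nd5 had 2099.8 and 2123 CPM in 11D EtOH and 2319 and 2415 CPM in 10E EtOH, against 3099, 2855 and 2511 CPM in untagged IAA, without overlap (-0.34 ± 0.10, edgeR FDR 0.0694). mt-Tq was at -1.09 ± 0.29 (edgeR FDR 0.0503). Both comparisons use the same untagged libraries, and the tagged groups' values for mt-Nd5 overlapped each other.

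Among the nuclear genes that serve mitochondrial transcription, calls went both ways. For tagged IAA against tagged EtOH, 2 of 11 genes of the transcription list were called higher and 5 lower (median -0.70), beside the 29.3% of all genes called higher and 28.1% lower. With library totals, which called 43.0% of all genes higher, the counts were 2 and 3 (median -0.38). Tfam, which packages mitochondrial DNA and bends its promoters, averaged 33.5 ± 5.12 CPM in tagged IAA and 58.6 ± 9.28 CPM in tagged EtOH (-0.75 ± 0.13, edgeR FDR 0.00012). Tfb1m, the methyltransferase of the 12S rRNA, fell to 3.37 ± 0.830 CPM in tagged IAA, against 13.2 ± 2.86 CPM in tagged EtOH (-2.02 ± 0.25), and Mrpl12, a ribosomal protein that also binds the polymerase, was lower as well (-0.98 ± 0.12). Tfb2m, the initiation factor that opens the promoter, was higher (0.63 ± 0.15), as was Mterf3 (0.45 ± 0.14). Polrmt, the polymerase itself, was not called, at 52.8 ± 7.43 CPM in tagged IAA and 59.4 ± 11.8 CPM in tagged EtOH (-0.10 ± 0.12), and its value was 0.23 with library totals. Of the biogenesis regulators, 0 of 8 tested were called higher and 6 lower (1 and 3 with library totals), among them Ppargc1b (-1.38 ± 0.23), Nrf1 (-0.84 ± 0.11) and Pprc1 (-0.69 ± 0.09), which are known as activators of nuclear genes for mitochondria.

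Of 27 genes of mitochondrial RNA processing and stability, 7 were called higher and 14 lower (median -0.32), while with library totals 9 were higher and 10 lower (median 0.01). Lrpprc, which stabilises mitochondrial mRNAs, averaged 252.9 ± 14.4 CPM in tagged IAA and 212.2 ± 17.6 CPM in tagged EtOH (0.25 ± 0.09, edgeR FDR 0.0322). Mtpap, the mitochondrial poly(A) polymerase, fell to 22.7 ± 3.63 CPM in tagged IAA, against 55.4 ± 10.3 CPM in tagged EtOH (-1.34 ± 0.12), and Fastk, whose mitochondrial form is known to act on mt-Nd6 RNA, was lower too (-1.40 ± 0.12). Elac2, which cuts the 3′ ends of tRNAs, was higher (0.32 ± 0.10), as were Mrm1 (1.32 ± 0.17), a methyltransferase of the 16S rRNA, and Pde12 (0.57 ± 0.12), which trims poly(A) tails. Of 18 genes of mitochondrial DNA replication and nucleotide supply, 7 were higher and 5 lower (10 and 2 with library totals), beside 29.3% and 28.1% over all genes. The helicase Twnk was higher (0.54 ± 0.11) and the single-strand binding protein Ssbp1 lower (-0.82 ± 0.12).

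The nuclear partners of the proteins encoded here were lower on balance in tagged IAA than in tagged EtOH with TMM. Of 74 nuclear subunits of complexes I, III, IV and V, 2 were called higher and 38 lower (median -0.31). Over all genes tested, 29.3% were called higher and 28.1% lower. With library totals 15 of the 74 were higher and 14 lower (median 0.02). That scaling called 7704 of all 17904 genes higher and 2859 lower. Against untagged IAA with TMM, tagged IAA had 6 of the 74 called higher and 21 lower (median -0.10). There 27.9% of all genes were called higher and 27.8% lower. Tagged EtOH against untagged IAA gave 2 higher and 0 lower (median 0.13), where 3.57% of all genes were called. By complex, tagged IAA against tagged EtOH with TMM gave 1 higher and 16 lower of 36 in complex I. Complex III had 0 and 5 of 9, complex IV 0 and 6 of 11, and complex V 1 and 11 of 18. Ndufb4 of complex I (-1.44 ± 0.18), the cytochrome c1 gene Cyc1 of complex III (-0.92 ± 0.10), Cox7b of complex IV (-0.89 ± 0.11) and Atp5b, the catalytic beta subunit of complex V (-0.65 ± 0.10), were all lower in each tagged IAA library than in any tagged EtOH library. The 2 subunits called higher were Ndufb6 of complex I (0.40 ± 0.11) and Atp5l of complex V (0.98 ± 0.13). The mRNAs encoded in the mitochondria for the same complexes had medians of 0.12 over 5 tested genes of complex I, 0.10 over 3 of complex IV and -0.07 over 2 of complex V, beside 0.26 for mt-Cytb of complex III. The difference between nuclear and mitochondrial subunits was not itself tested. Of 18 tested genes of the mitochondrial stress response list, 3 were called higher and 13 lower (4 and 11 with library totals), with Oma1 higher (0.81 ± 0.15), and Atf4 (-1.48 ± 0.11) and Hspa9 (-1.33 ± 0.10) lower. Of the 9 tested nuclear copies of mitochondrial sequence, 0 were called in either direction by edgeR and 0 had an unadjusted p under 0.05.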

How the data were processed

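RNA was sequenced from mouse embryonic stem cells, with libraries built from total RNA by a directional NEBNext kit, per the labels' protocols. The authors deposited whole-number read counts per gene for 10 libraries, without normalization. The labels list 11 samples. STAR, deepTools and the mm10 build are named in the submitters' processing notes; versions, counter, annotation and strand setting: not given in the sources used here. The authors' deposited table of IAA against EtOH holds base means (a signal scaled by size factors), log2 fold changes with standard errors, a Wald score, p-values and adjusted p-values, per the file headers; it is used for description.

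Members are all genes named mt-. They, and the gene lists, were chosen with earlier results of these data known. Counts of all genes were fitted with edgeR 4.0.16 (TMM, filterByExpr, quasi-likelihood F test, Benjamini-Hochberg adjustment over all genes tested, FDR 0.05; R 4.3.3). Tagged IAA against tagged EtOH used the 7 tagged libraries with a term for line; other comparisons used 1 coefficient per line and treatment. The untagged columns, marked TIR1, were matched to the untagged labels because they alone have an IAA replicate numbered 3 and no EtOH. Named were all mRNA and rRNA members, tRNAs that passed the filter or were called (mt-Tc and mt-Ta, outside this rule, were added after their values were seen), and in each nuclear list at most 3 called genes each way with the lowest FDR, plus Polrmt, Tfam, Twnk, Lrpprc and Ppargc1b. Alternatives were plain library totals, DESeq2 1.42.0, other filters and scalings, a replicate block and leaving out libraries. The fit of tagged IAA against tagged EtOH was run on simulated data with a single dispersion, no line effect and as many genes raised as lowered. Those settings cannot show how the results depend on scaling or on genes that vary more.

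Transcript sequences and coordinates came from GENCODE's GRCm38 release; copies were found as exact 50-base windows and aligned with Biopython 1.88. Total counts per library of 3100127 to 13510163 limit the precision for the tRNAs and the 6 low mRNAs.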

Additional observations from a re-analysis of the deposited data

Results flagged for a closer look

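Values of the 4 tagged EtOH libraries were checked for 1 library far from the other 3, over 46 groups of values, and 4 were found. Chance gives about 1 in 20, which is 2.3 over the 46 groups. The groups are not independent, since the level and the share of the same gene were both checked. All 4 belong to 10E EtOH replicate 1. Its mt-Nd2 level was 740.3 CPM, where the other tagged EtOH libraries had 1407 to 1476 CPM, and mt-Nd2 made up 4.37% of its mitochondrial counts, where the others had 6.15% to 6.42%. Its mt-Nd4 level was 576.4 CPM, where the others had 963.6 to 1011 CPM. In the other direction, mt-Nd6, the gene of the opposite strand, made up 4.22% of its mitochondrial counts, where the others had 1.87% to 2.14%. Without that library the log2 fold change of mt-Cytb between tagged IAA and tagged EtOH was 0.15. Groups of 3 libraries were not checked in this way.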

How the results depend on the processing

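For tagged IAA against tagged EtOH, the 4 members called higher became 11 with library totals, 2 with the replicate block and 2 in a fit on all 10 libraries. They became 6 with no low-count filter (31 members tested), 3 without the line term, and 1 to 6 leaving out 1 library at a time. Of all 17904 genes, 7704 were called higher with library totals, 5047 with the replicate block and 4766 without the line term. With no filter it was 5349 of 32032, and on all 10 libraries 5000 of 17439. With 1 library left out it was 3888 to 4907 genes. When both EtOH libraries with the most CT010467.1 counts were left out, 4 members were called higher and 1 lower, but not the same ones: mt-Tw (0.42, FDR 0.101), mt-Tp (0.47, FDR 0.222) and mt-Rnr2 (1.51, FDR 0.128) lost the call by edgeR, mt-Nd1 (0.34, FDR 0.016), mt-Nd4 (0.29, FDR 0.0227) and mt-Cytb (0.38, FDR 0.00734) gained it, mt-Te kept it, and mt-Nd6 was the one called lower (-0.29, FDR 0.0143). Over all genes that fit called 4729 of 17707 higher and 4738 lower. mt-Rnr2 ran from -0.12 without 11D IAA replicate 1 to 2.08 without 10E IAA replicate 1. The share ratio of 1.41 became 1.13 with the TMM effective library size and ran from 1.32 to 1.502 leaving out 1 library. For tagged IAA against untagged IAA, library totals gave 3 higher and 0 lower, and no low-count filter gave 2 higher and 4 lower. Leaving out 1 library gave 0 to 3 higher and 0 to 4 lower. Over all genes, library totals called 6882 of 17439 higher and 3013 lower, and no filter 4744 of 32892 higher and 5084 lower. With 1 library left out, 3913 to 4939 genes were called higher and 4234 to 4983 lower. For tagged EtOH against untagged IAA, the members called lower were 3 with library totals, 2 with DESeq2, 6 with no filter and 1 with the replicate block. There was 1 when mitochondrial reads were kept out of the scaling, and 0 to 6 leaving out 1 library. Of all 17439 genes, 715 were called lower with library totals, 543 with DESeq2, 274 with the replicate block and 393 with that scaling. With no filter it was 723 of 32892, and leaving out 1 library 66 to 546 genes. For 11D against 10E, library totals gave 1 higher, and no filter gave 2 higher and 1 lower. Leaving out 1 library at a time took mt-Cytb from 0.30 to 0.92 there. Leaving out an EtOH library leaves 1 of its line, so calls of those fits are not given. Over all genes, 11D against 10E had 347 of 17904 called higher with library totals. With no filter it had 522 of 32032 called higher and 448 lower. For the interaction, no filter gave 2 higher, where 15 of all 32032 genes were called higher. It could not be fitted without the 10E IAA library. The cause of these shifts was not tested. Under the replicate block, for tagged IAA against tagged EtOH, mt-Rnr2 (0.78, edgeR FDR 0.232) and mt-Tp (0.86, FDR 0.0669) lost the call. There mt-Tw (FDR 0.0281) and mt-Te (FDR 0.00591) kept it. The labels do not say what a replicate number marks. Deviations of same-numbered libraries correlated at 0.593 between 11D EtOH and 11D IAA, the only cells of 1 line that could be compared. Between other cells the correlation ran from -0.487 to 0.0747, and the numbers were not taken as pairs over the design. In line 11D the replicate 1 libraries had 3554390 (EtOH) and 3100127 (IAA) counts, and the replicate 2 libraries 11848952 and 13510163. Whether a shared batch or the library size lay behind the correlation within line 11D was not tested. The tagged IAA mean shares of the 7 well-counted mRNAs moved by less than 1 SD with mRNAs alone as the divisor. Those 7 mRNAs held 98.3% to 99.7% of a library's mitochondrial counts, so this change of divisor could hardly move them.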
